A study of Mus musculus with 16 samples.

Results

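Transcript levels of proximal colon smooth muscle were compared between formerly germ-free mice that carried a transplanted control microbiota and mice that had been raised with a microbiota. The comparison took the 4 arrays labelled C/-Lop and the 4 arrays labelled SPF, 8 of the 16 arrays of the series, and every probe on them. C/-Lop arrays held RNA of wild type C57Bl/6 mice born germ-free (GF) and gavaged with cecal contents of untreated C57Bl/6 donors, killed 4 weeks later. SPF arrays held RNA of wild type C57Bl/6 mice kept under specific pathogen-free conditions. The design gives 8 to 10 weeks as the age of SPF mice at treatment and calls the GF mice age-matched. The paper's methods give 8 to 10 weeks for germ-free mice at gavage, and its results section gives an older age. The age of the mice behind each array is not given, nor whether the groups were of equal age when killed. None of these 8 arrays is labelled with loperamide, the drug given to donors of the C/+Lop group, and the diet, housing and cage of single mice are not given either. The groups therefore differed in the age at which microbes arrived, in the route by which they came and in the donor, and these cannot be told apart. Whether the arrays of a group came from separate mice is not given, so the p-values speak only of the spread among arrays, part of which may be technical.

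The wall of the colon holds circular and longitudinal layers of smooth muscle, between which lie enteric neurons, glia and the interstitial cells of Cajal that pace contraction. Muscarinic receptors and calcium entry drive the actin and myosin of these cells, and nitric oxide, cyclic GMP and potassium channels relax them. Microbes reach the tissue mainly through the epithelium, which answers them with antimicrobial proteins such as Reg3 lectins and defensins, and through metabolites and the immune cells of the mucosa.

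Each array read 25697 probes as the mean fluorescence of many beads (a median of 37 to 39 per probe). Median intensities were 124 to 145 on the recipients' arrays and 144 to 168 on the SPF arrays, and 12463 to 13103 and 13326 to 13942 probes were above background. After background correction, quantile normalization and log2, 14102 probes above background on 4 or more of the 16 arrays were tested in 1 limma fit over all 4 groups. The brightest probe on average stood for each of 9862 genes. Values below are such normalized log2 intensities, in the order of replicates 1, 2, 3 and 4 for recipients and 1, 2, 13 and 4 for SPF mice, as the labels number them. Levels of different genes are not compared, since they rest on different probes. With 4 arrays a group, fold changes are differences of group means, recipients minus SPF, and a gene rose or fell where its p, adjusted by Benjamini-Hochberg over all probes, was under 0.05.

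SPF replicates 2 and 4 stood apart from the rest. The leading principal component, with 33.6% of the variance, put both at 48.1, with the other SPF arrays at 13.6 (replicate 1) and 7.0 (replicate 13) and the recipients from -13.6 to -5.0. Xist, the transcript of the inactive X chromosome, was above 6 on recipients 2 and 3 and on SPF replicate 4 and under 5 on the others, so that sex was not balanced. Defining markers of smooth muscle were abundant on all 8 arrays (Myh11 12.08 to 13.66, Des 12.39 to 13.70, Smtn 11.40 to 12.95). Epithelial markers were abundant too (Krt8 13.55 to 13.91, Krt20 11.59 to 12.63, Vil1 10.69 to 11.57), and the samples thus held mucosa beside muscle. Cela1, a protease of pancreatic acinar cells that colon also expresses, read 10.07 to 11.39, and Hba-a1, a globin of red blood cells, read 10.12 to 12.62.

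Between recipients and SPF mice, 2373 of 14102 probes passed (16.8%), 1165 higher (8.26%) and 1208 lower (8.57%) in recipients. By gene, 1615 of 9862 passed (16.4%), of which 684 rose (6.94%) and 931 fell (9.44%), and the median log2 fold change of all genes was 0. The values of the groups did not overlap for 894 genes that were higher (9.07%) and 1177 that were lower (11.9%) in recipients. With arrays scaled to their median in place of quantile normalization, the median of all genes was 0.12. The split turned to 1655 genes that rose (16.8%) and 691 that fell (7.01%), so that the direction of genes close to 0 depends on the scaling. Counts of genes that rose and fell were 299 and 414 without SPF replicate 2 (3.03% and 4.2% of all genes) and 180 and 240 without SPF replicates 2 and 4 (1.83% and 2.43%). They were 389 and 541 without recipient 4 (3.94% and 5.49%) and 428 and 596 without recipient 2 (4.34% and 6.04%). Without SPF replicate 13 the shares were 9.03% and 12.6%. Counts of list members in these fits, given below, are to be read beside these shares. In a fit of only the arrays without Xist signal in all 4 groups, which left 2 of recipients and 3 of SPF mice, 3 genes rose and 2 fell.

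**Figure D1:**
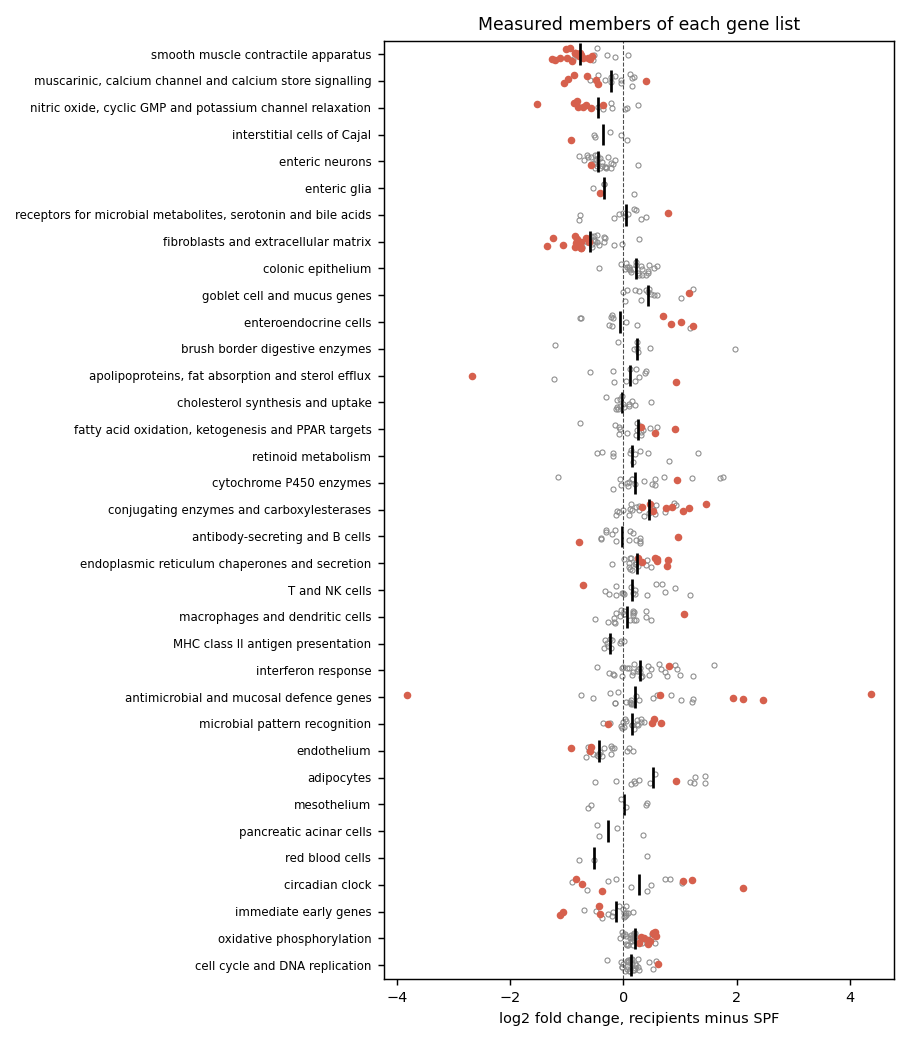
Log2 fold change, recipients minus SPF, of every measured member of 35 gene lists, 1 row per list, with filled points for genes that passed at an adjusted p under 0.05, open points for the rest and a bar at the list's median. The rows of contractile, relaxation and matrix genes lie left of 0 with filled points (medians -0.77, -0.45 and -0.58), and those of conjugating enzymes, endoplasmic reticulum chaperones and oxidative phosphorylation lie right of it (medians 0.45, 0.23 and 0.20).

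Genes of the contractile apparatus were lower in recipients than in SPF mice. Of 24 measured genes, 17 fell, none rose and 7 did not pass, with a median log2 fold change of -0.77 beside 0 for all genes and a share of 9.44% of all genes that fell. Synm, which encodes the intermediate filament protein synemin, read 11.37, 11.68, 11.77 and 11.44 in the recipients and 12.32, 13.19, 12.34 and 12.88 in SPF mice. Every recipient was below every SPF array, and Synm was 2.16-fold lower (log2 change -1.11 ± 0.19 SE, adjusted p = 0.00361; further probes -1.17 and -0.53, adjusted p = 0.00489 and 0.0549). Myh11, the smooth muscle myosin heavy chain, read 12.22, 12.20, 12.38 and 12.08 in the recipients and 12.91, 13.66, 12.82 and 13.46 in SPF mice. It was 1.99-fold lower without overlap (log2 change -0.99 ± 0.21 SE, adjusted p = 0.00767), and SPF replicates 2 and 4 were the highest of the SPF arrays. Myocd, the coactivator of serum response factor that switches on smooth muscle genes, read 8.23, 7.87, 8.21 and 7.92 in the recipients and 8.95, 9.78, 9.10 and 9.23 in SPF mice, again without overlap, and fell by 1.21 on the log2 scale (2.31-fold, adjusted p = 0.00371). A second, dim probe of Myocd, above background on 4 of the 8 arrays, gave -0.04. Synpo2, an actin-binding protein, read 4.80, 5.14, 5.45 and 4.74 in the recipients and 6.04, 6.96, 5.38 and 6.81 in SPF mice. Its groups overlapped, it was above background on 1 of 4 recipients' arrays and all 4 SPF arrays, and it fell (log2 change -1.26 ± 0.28 SE, adjusted p = 0.00921).

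Further members of the apparatus also fell. Tpm1, a tropomyosin of the thin filament, had a log2 fold change of -0.63 (adjusted p = 0.00738), Pdlim7, a protein of actin attachment sites, -1.01 (0.008), and Smtn, smoothelin, -0.95 (0.011). Desmin (Des) had -0.76, transgelin (Tagln) -0.91, calponin (Cnn1) -0.85, the myosin light chain kinase Mylk -0.75, vinculin (Vcl) -0.72 and serum response factor (Srf) -0.60, with adjusted p from 0.0166 to 0.0281. In all 9 of these genes the recipients lay below all SPF arrays. Calls were lost in fits without 1 array for Des and Mylk without SPF replicate 2 (adjusted p 0.0608 and 0.0626), Tagln without recipient 4 or SPF replicates 2 or 4 (adjusted p 0.0608 to 0.0795), Cnn1 without recipients 1, 2 or 4 or SPF replicates 2 or 4 (adjusted p 0.0529 to 0.101), Srf without recipients 2 or 4 or SPF replicates 2 or 4 (adjusted p 0.0514 to 0.0802) and Vcl without recipient 4 or SPF replicate 2 (adjusted p 0.0581 to 0.0594).

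Smooth muscle actin, Acta2, gave different values by probe. Its brightest probe, which represents it, read 14.16, 14.30, 14.35 and 14.25 in the recipients and 14.13, 14.22, 14.20 and 14.22 in SPF mice. The groups overlapped (log2 change 0.07 ± 0.07 SE, adjusted p = 0.519), and the probe was among the 11 brightest of each array, with a raw intensity of 17596 to 20409 where the highest intensity on an array was 19639 to 21856. The next brightest probe read 12.69, 12.64, 12.77 and 12.46 in recipients and 12.97, 13.80, 12.91 and 13.68 in SPF mice, which is a fall of 0.70 (log2 change -0.70 ± 0.19 SE, adjusted p = 0.0229). The remaining probes gave -1.08 and -1.07 (SE 0.21 each, adjusted p = 0.00547 and 0.00519), so that 3 of 4 Acta2 probes fell, in each case without overlap between groups, and the one at the top of the scale did not pass. Under median scaling that probe rose (0.61, adjusted p = 0.0116).

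**Figure D2:**
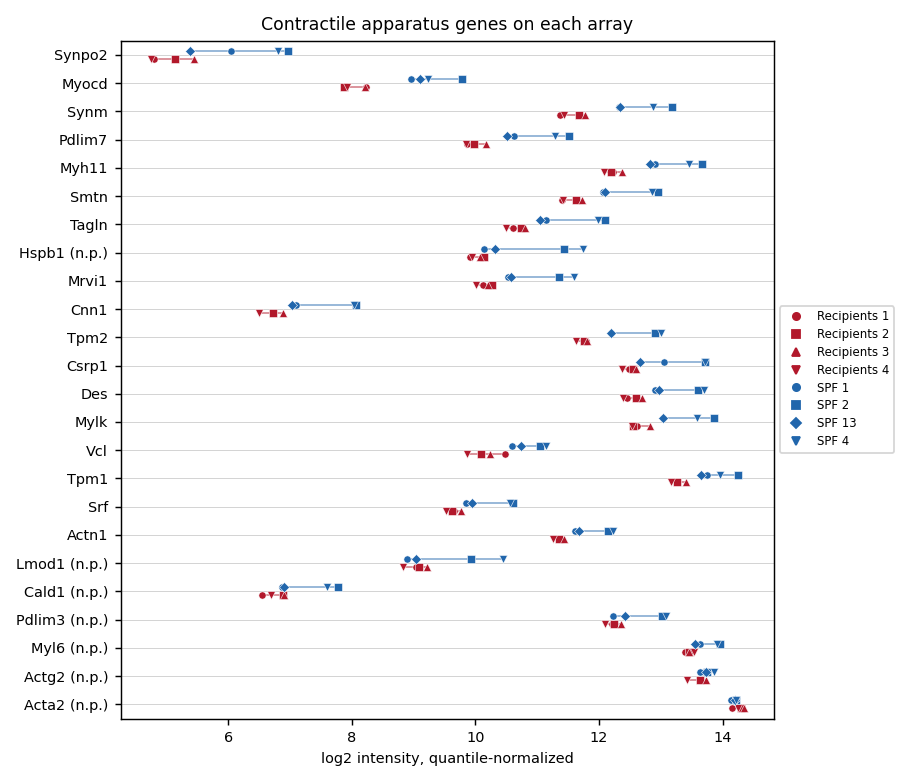
Quantile-normalized log2 intensity of the 24 measured contractile genes on each array, recipients in red and SPF mice in blue, with 1 symbol per replicate, a line over each group's range and n.p. beside genes that did not pass. Recipients lie left of SPF mice without overlap in 18 of the 24 rows, beside 11.9% of all genes. In most of them SPF replicates 2 (squares) and 4 (triangles pointing down) lie farthest right, and Acta2 sits at the right edge of the scale.

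The contractile genes were highest on SPF replicates 2 and 4. Means over the 24 genes were 10.77, 10.82, 10.94 and 10.66 on the recipients' arrays and 11.17, 11.91, 11.16 and 11.87 on the SPF arrays, so that all recipients were below SPF replicates 1 and 13 as well. In fits without 1 array 8 to 20 of 24 fell, with 8 without SPF replicate 2 and 11 without recipient 4. Without SPF replicates 2 and 4, Synm and Myocd fell and the median was -0.40. The epithelial list moved the other way on the same arrays: means over its 23 measured genes were 11.03 to 11.14 in recipients and 11.07, 10.49, 11.11 and 10.74 in SPF mice. Of the 23, 21 were higher in recipients, though none passed (7 rose under median scaling, beside 16.8% of all genes in that fit). With that epithelial mean as a covariate, 8 contractile genes fell (median -0.50), beside 4.39% of all genes in that fit. In bulk tissue, fewer muscle cells and less of these RNAs per cell cannot be told apart. Under median scaling 12 contractile genes fell and 1, Acta2 by its brightest probe, rose, beside 7.01% and 16.8% of all genes. Tpm1, Des and Mylk did not pass in that fit.

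Serum response factor binds the CArG box. The promoters of Srf and Vcl are shown because, of the 14 contractile genes that fell and have a RefSeq promoter window (250 bases before to 50 after the start site, GRCm38.p6), these were the 2 with a CArG box inside it. Capitals mark the box, at positions -82 and -62 from the start site in Srf (chr17:46556113-46556412, minus strand) and at -227 in Vcl (chr14:20929148-20929447, plus strand).
Srf: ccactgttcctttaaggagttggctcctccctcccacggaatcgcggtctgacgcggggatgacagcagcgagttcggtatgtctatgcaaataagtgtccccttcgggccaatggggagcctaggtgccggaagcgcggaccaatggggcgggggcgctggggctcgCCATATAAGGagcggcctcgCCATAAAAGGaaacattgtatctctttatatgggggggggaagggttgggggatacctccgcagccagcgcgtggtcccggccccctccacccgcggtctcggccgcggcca
Vcl: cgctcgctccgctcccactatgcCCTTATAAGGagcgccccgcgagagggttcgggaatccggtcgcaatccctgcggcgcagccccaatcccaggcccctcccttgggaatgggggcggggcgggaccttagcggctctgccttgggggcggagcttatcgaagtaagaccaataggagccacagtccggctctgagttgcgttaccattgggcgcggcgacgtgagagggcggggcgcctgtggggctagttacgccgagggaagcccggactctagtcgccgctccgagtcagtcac
Of 20 contractile genes with a window, 3 held the box on either strand, the third being Myl6, which did not pass, and of all 27025 genes with a window 1.81% did. A match is a description of these letters, and boxes farther from the start site or in introns were not searched.

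Genes of the nitric oxide and potassium channel pathway that relaxes smooth muscle were also lower in recipients. Of 15 measured, 8 fell, none rose and 7 did not pass (median -0.45), beside 9.44% of all genes that fell. Kcnmb1, the beta subunit that sets the calcium sensitivity of the large-conductance potassium channel in smooth muscle, read 5.07, 5.25, 5.41 and 5.35 in the recipients and 6.31, 7.25, 6.30 and 7.33 in SPF mice. The groups did not overlap and Kcnmb1 was 2.88-fold lower (log2 change -1.53 ± 0.25 SE, adjusted p = 0.003), with 3 of 4 recipients above background. Kcnma1, the pore of the same channel, read 6.34, 5.98, 6.39 and 5.99 in the recipients and 6.62, 7.10, 6.75 and 6.85 in SPF mice and fell without overlap (log2 change -0.65 ± 0.17 SE, adjusted p = 0.0162). Prkg1, the cyclic GMP-dependent kinase, read 5.06, 5.50, 5.49 and 5.09 in the recipients and 5.96, 6.79, 5.67 and 6.25 in SPF mice and fell likewise (log2 change -0.88 ± 0.18 SE, adjusted p = 0.0069). Both subunits of soluble guanylate cyclase, the receptor for nitric oxide, fell: Gucy1a1 with -0.81 (adjusted p = 0.00988; second probe -0.70, adjusted p = 0.0537) and Gucy1b1 with -0.57 (adjusted p = 0.0274) on the log2 scale. Of the remaining potassium channels, Kcnk3 had -0.80 (adjusted p = 0.0117) and Kcnj8 -0.71 (0.0212), and P2ry1, the purine receptor of inhibitory transmission, had -0.37 (0.0453). In fits without 1 array 4 to 7 of 15 fell, with 4 without SPF replicate 2 and 5 without recipient 1 or 4. Without SPF replicates 2 and 4, Kcnmb1 and P2ry1 fell. Calls were lost for Kcnma1 without recipient 4 or SPF replicate 2 (adjusted p 0.0513 to 0.0601), Gucy1b1 without recipients 1, 2 or 4 or SPF replicates 2 or 4 (adjusted p 0.0522 to 0.0977), Kcnj8 without recipient 1 or SPF replicates 2 or 4 (adjusted p 0.0536 to 0.0724) and P2ry1 without any of the 4 recipients or SPF replicates 1, 2 or 13 (adjusted p 0.0667 to 0.15).

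Among 19 measured genes of muscarinic and calcium signalling, 6 fell and 1 rose (median -0.22), beside 9.44% and 6.94% of all genes. Chrm2, the more abundant of the muscarinic receptors of gut muscle, read 5.40, 5.14, 4.74 and 4.50 in the recipients and 5.60, 6.63, 5.16 and 6.33 in SPF mice. The groups overlapped, 1 of 4 recipients and all SPF arrays were above background, and Chrm2 fell (log2 change -0.98 ± 0.27 SE, adjusted p = 0.0232). Chrm3, the receptor that triggers contraction, read 5.56, 5.65, 5.68 and 5.25 in the recipients and 5.90, 6.40, 6.85 and 5.33 in SPF mice and did not pass (log2 change -0.59 ± 0.24 SE, adjusted p = 0.0995). It fell in the fit without SPF replicate 4 (-0.85, adjusted p = 0.0146), while leaving out SPF replicate 13 gave -0.34 (adjusted p = 0.25). Gnaq, the G protein that couples Chrm3 to phospholipase C, read 8.60, 8.56, 8.55 and 8.39 in the recipients and 8.92, 9.15, 8.95 and 9.02 in SPF mice. It fell without overlap (log2 change -0.48 ± 0.09 SE, adjusted p = 0.00389), while its second probe, near background, gave -0.08. Gna11, a close relative of Gnaq, read 10.96, 10.70, 10.83 and 10.76 in the recipients and 10.59, 10.00, 10.72 and 10.34 in SPF mice and rose (log2 change 0.40 ± 0.13 SE, adjusted p = 0.0411; 0.26 without SPF replicate 2). Ppp1r14a, the inhibitor of myosin phosphatase, had -1.05 (adjusted p = 0.016; second probe -0.54, adjusted p = 0.159), and the calcium channel Cacna1h had -0.65 (0.0143). Ache, which breaks down acetylcholine, had -0.33 and did not pass (adjusted p = 0.253; -0.20 without SPF replicate 4). Counts that fell were 1 (Gnaq) without SPF replicate 2 and 3 without recipient 3 or 4. Calls lost on leaving out 1 array were those of Gna11 without any of the 4 recipients or SPF replicates 2 or 4 (adjusted p 0.0565 to 0.128), Chrm2 without recipients 3 or 4 or SPF replicates 2 or 4 (adjusted p 0.0574 to 0.0822) and Cacna1h and Ppp1r14a without SPF replicate 2 (adjusted p 0.0552 and 0.0596).

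Matrix and fibroblast genes were lower in recipients as well. Of 31 measured, 13 fell and none rose (median -0.58), beside 9.44% of all genes that fell. Elastin, Eln, read 6.13, 6.18, 6.33 and 6.84 in the recipients and 7.31, 8.23, 7.18 and 8.12 in SPF mice. Every recipient was below every SPF array and Eln was 2.54-fold lower (log2 change -1.34 ± 0.27 SE, adjusted p = 0.00562). Loxl1, the enzyme that cross-links elastin, read 8.82 to 9.14 in the recipients and 9.56 to 10.83 in SPF mice and was 2.36-fold lower (log2 change -1.24 ± 0.29 SE, adjusted p = 0.0111). Col1a1, the main chain of type I collagen, read 7.95, 8.45, 8.26 and 8.20 in the recipients and 9.29, 9.66, 8.63 and 9.58 in SPF mice (log2 change -1.07 ± 0.22 SE, adjusted p = 0.00688). Mmp14, a membrane-bound protease that cleaves collagen, read 9.88, 10.10, 10.05 and 9.98 in the recipients and 11.00, 11.14, 10.63 and 10.62 in SPF mice. Its groups were well apart (log2 change -0.84 ± 0.14 SE, adjusted p = 0.003), and it was the member of this list that fell without SPF replicates 2 and 4 too (log2 fold change -0.81, adjusted p = 0.0204). Col6a1 had -0.86 (adjusted p = 0.0107; second probe -0.47, adjusted p = 0.145). List means were 8.51 to 8.74 in recipients and 8.99, 9.66, 8.78 and 9.59 in SPF mice. Counts that fell were 6 without SPF replicate 2, 8 without recipient 1 or 4 and 20 without SPF replicate 13, and without SPF replicates 2 and 4, 1 fell and the median was -0.17. With the epithelial mean as a covariate, 5 fell (median -0.24), beside 4.39% of all genes in that fit.

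Several of the largest falls were in other secreted or adhesion genes. Spon2, a matrix protein that also binds microbial surfaces, read 10.31, 10.87, 10.58 and 10.88 in the recipients and 12.75, 13.40, 12.49 and 12.29 in SPF mice. It was 4.21-fold lower in recipients without overlap (log2 change -2.07 ± 0.30 SE, adjusted p = 0.00168), and fell in every setting that left out 1 array. Grem1, a secreted inhibitor of bone morphogenetic proteins made by muscle and fibroblasts of the gut, read 6.60, 6.75, 6.43 and 6.72 in the recipients and 7.75, 8.99, 7.59 and 8.62 in SPF mice and was 3.06-fold lower (log2 change -1.61 ± 0.27 SE, adjusted p = 0.00295). Itga5, the fibronectin receptor subunit, read 6.69, 6.99, 6.98 and 7.22 in the recipients and 7.93, 8.72, 8.14 and 8.41 in SPF mice (log2 change -1.33 ± 0.17 SE, adjusted p = 0.00137), and its second probe gave -1.37. Ptn, the growth factor pleiotrophin, read 9.18, 9.35, 9.35 and 9.20 in the recipients and 9.89, 11.37, 9.58 and 11.16 in SPF mice and fell (log2 change -1.23 ± 0.32 SE, adjusted p = 0.0171), with SPF replicates 2 and 4 above 11 and all other arrays below 10. Matn4, a matrix protein, had -1.59 (adjusted p = 0.00546) and by a second, dim probe -0.46 (adjusted p = 0.0893). The keratin Krt17 had -1.56 (0.0119), the small GTPase Diras2 -1.37 (0.00295), and Samd4, an RNA-binding protein, -1.49 (0.0038), where the second probe of Samd4, near background, gave 0.25. The fit lost the call of Ptn without SPF replicate 2 (adjusted p 0.0601).

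In lists of 5 to 27 genes, the other cells of the muscle layer held 1 to 3 that fell, beside 9.44% of all genes. The share was lower than that for neurons and higher for interstitial cells of Cajal, glia and endothelium. Of 27 neuronal genes, 26 were lower in recipients (median -0.45) and 1, the neuropeptide Npy (log2 change -0.58 ± 0.18 SE, adjusted p = 0.0392), fell. Means over the neuronal genes were 6.56 to 6.88 in recipients and 6.70, 7.45, 6.70 and 7.65 in SPF mice, so that recipients overlapped SPF replicates 1 and 13, and without SPF replicates 2 and 4 the median was -0.03 (-0.41 in place of -0.45 with undetected genes at their bound). Of 6 genes of interstitial cells of Cajal, the kinase Prkcq fell (log2 change -0.92 ± 0.19 SE, adjusted p = 0.00612), and the chloride channel Ano1, which carries their pacemaker current, read 7.20, 6.87, 7.25 and 6.95 in the recipients and 7.14, 7.70, 7.12 and 8.42 in SPF mice and did not pass (log2 change -0.52 ± 0.22 SE, adjusted p = 0.111). Ano1 fell without SPF replicate 13 (-0.68, adjusted p = 0.0405) and with the Xist level as a covariate, and had -0.25 (adjusted p = 0.314) without SPF replicate 4. Of 5 glial genes, Entpd2, an enzyme that degrades extracellular ATP, fell (log2 change -0.41 ± 0.13 SE, adjusted p = 0.0396). Of 20 endothelial genes, 3 fell (median -0.42), beside 9.44% of all genes. The groups did not overlap for 7 that were lower, beside 11.9% of all genes. Cdh5, the cadherin of endothelial junctions, was above background on none of the recipients' arrays and all 4 SPF arrays and was at least 1.4-fold lower (means 4.70 and 5.63, adjusted p = 0.00481). Prox1, a factor of lymphatic endothelium, was likewise undetected in recipients and at least 1.07-fold lower (means 4.66 and 5.24, adjusted p = 0.00295; not past the threshold under median scaling, adjusted p = 0.163), and Flt1, a VEGF receptor, fell (log2 change -0.57 ± 0.15 SE, adjusted p = 0.0205). The endothelial count was 2 without recipient 4, 6 without SPF replicate 1 and 8 without SPF replicate 13. Leave-one-out fits lost the calls of Npy without recipients 1, 3 or 4 or SPF replicates 1, 2 or 4 (adjusted p 0.0595 to 0.136), Entpd2 without any of the 4 recipients or SPF replicates 2 or 4 (adjusted p 0.0694 to 0.134) and Flt1 without recipient 4 or SPF replicate 2 (adjusted p 0.0608 to 0.0738).

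Antimicrobial genes of the mucosa held the largest changes of all 9862 genes in both directions, Reg3b and Defa20. Of 26 measured, 5 rose and 1 fell (median 0.20), beside 6.94% and 9.44% of all genes. Reg3b, a bactericidal lectin of the epithelium, read 13.75, 13.56, 13.61 and 13.94 in the recipients and 7.06, 10.84, 12.19 and 7.29 in SPF mice. The recipients lay within 0.4 of each other and above an SPF group that spanned over 5 on the log2 scale, and Reg3b was 20.7-fold higher (log2 change 4.37 ± 0.86 SE, adjusted p = 0.00546, 95% interval 2.54 to 6.21). This SE and interval pool the spread of all 4 groups, where the SD was 2.57 in SPF mice and 0.17 in recipients. Reg3b did not pass by the t-test of the paper's methods after Benjamini-Hochberg adjustment. Its second probe was above background on all recipients' arrays and no SPF array, and passed too (means 5.80 and 4.54, adjusted p = 0.0374). Reg3g, the lectin that acts on Gram-positive bacteria, read 7.51, 7.49, 7.24 and 8.58 in the recipients and 4.83, 5.61, 7.53 and 4.38 in SPF mice. Reg3a, a further member of the family, read 7.78, 6.44, 7.29 and 8.55 in the recipients and 4.57, 6.30, 6.95 and 4.49 in SPF mice. In both, recipients overlapped SPF replicate 13, and both rose (2.12 and 1.94, adjusted p = 0.0233 and 0.0319). Defb37, a beta-defensin, read 10.51, 9.24, 9.93 and 10.20 in the recipients and 7.00, 8.72, 9.38 and 4.91 in SPF mice. Recipient 2 overlapped SPF replicate 13, and Defb37 rose (log2 change 2.46 ± 0.67 SE, adjusted p = 0.0224; 1.60 without SPF replicate 4). These genes belong to families of near-identical copies, so that a probe may read more than its own gene.

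Defa20, an alpha-defensin of Paneth cells, went the other way. It read 5.87, 4.74, 4.91 and 4.54 in the recipients and 8.62, 10.10, 10.47 and 6.12 in SPF mice. No recipient reached an SPF array, 1 of 4 recipients and all SPF arrays were above background, and Defa20 fell (log2 change -3.81 ± 0.68 SE, adjusted p = 0.00371), a size that the values near background on the other 3 recipients' arrays limit. Fut2, which adds fucose to epithelial glycans, rose (log2 change 0.64 ± 0.21 SE, adjusted p = 0.0472), and Wfdc18, a secreted protease inhibitor, read 8.96, 8.69, 8.43 and 8.33 in the recipients and 7.66, 7.46, 7.87 and 6.79 in SPF mice and rose without overlap (log2 change 1.16 ± 0.27 SE, adjusted p = 0.011). Ang4, a ribonuclease of Paneth and goblet cells, read 13.44, 12.80, 12.70 and 12.70 in the recipients and 11.53, 9.22, 13.84 and 12.12 in SPF mice and did not pass, with SPF values on either side of all recipients (log2 change 1.23 ± 0.75 SE, adjusted p = 0.266). Ido1, the tryptophan-degrading enzyme induced by interferon, read 9.30, 8.87, 8.74 and 10.50 in the recipients and 8.12, 8.26, 8.33 and 6.26 in SPF mice, with recipient 4 highest and SPF replicate 4 lowest, and rose (log2 change 1.61 ± 0.47 SE, adjusted p = 0.0302). Lost in fits without 1 array were the calls of Reg3g without recipient 4 or SPF replicates 1, 2 or 4 (adjusted p 0.0529 to 0.0737), Reg3a without recipients 1, 3 or 4 or SPF replicates 1 or 4 (adjusted p 0.0527 to 0.0981), Defb37 without recipients 1 or 4 (adjusted p 0.0561 to 0.057), Fut2 without any of the 4 recipients or SPF replicates 2 or 4 (adjusted p 0.079 to 0.146) and Ido1 without recipients 1 or 4 or SPF replicate 4 (adjusted p 0.0553 to 0.0961). Reg3b alone of the antimicrobial list rose without recipient 4. Wfdc18 and Ido1 are outside that list, and Wfdc18 rose in every fit without 1 array. Without SPF replicates 2 and 4, Reg3b rose (4.09, adjusted p = 0.0347) and Defa20 fell (-4.53, adjusted p = 0.00216).

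**Figure D3:**
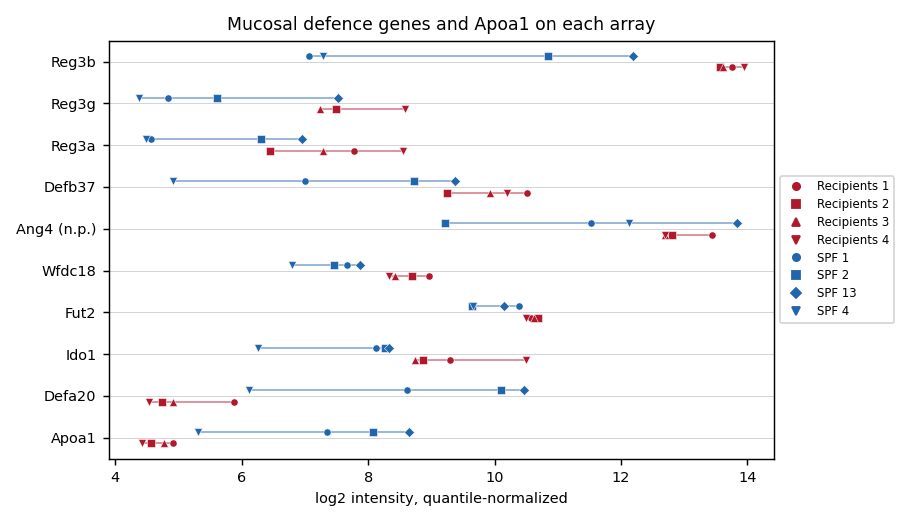
Quantile-normalized log2 intensity of 9 mucosal defence genes and Apoa1 on each array, recipients in red and SPF mice in blue, with 1 symbol per replicate and a line over each group's range. For Reg3b the recipients (13.56 to 13.94) lie above the SPF mice (7.06 to 12.19), and for Defa20 (4.54 to 5.87 against 6.12 to 10.47) and Apoa1 (4.42 to 4.91 against 5.31 to 8.64) they lie below.

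Apoa1, the main protein of high-density lipoprotein, fell with Defa20. It read 4.91, 4.56, 4.77 and 4.42 in the recipients and 7.35, 8.08, 8.64 and 5.31 in SPF mice. No recipient and all SPF arrays were above background, so that the fall was at least 4.6-fold (means 4.66 and 7.34, adjusted p = 0.00929), and SPF replicate 4, at 5.31, lay nearest to the recipients. Dgat2, which makes triglyceride, rose without overlap (log2 change 0.92 ± 0.21 SE, adjusted p = 0.00988), and the other 11 of 13 measured genes of lipoproteins, fat absorption and sterol efflux did not pass. None of 8 brush border enzymes and none of 15 genes of cholesterol synthesis passed, beside 16.4% of all genes.

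Some mitochondrial genes were higher in recipients. Of 18 genes of fatty acid oxidation, 3 rose and none fell (median 0.26), beside 6.94% of all genes that rose. Acaa2, the thiolase of the last step of the pathway, read 10.32, 10.33, 10.34 and 10.46 in the recipients and 9.58, 9.25, 9.61 and 9.39 in SPF mice. The groups were wide apart compared with their spread, and Acaa2 was 1.87-fold higher (log2 change 0.91 ± 0.11 SE, adjusted p = 0.00104). Acadl, the long-chain acyl-CoA dehydrogenase, had 0.56 (adjusted p = 0.00338) and by a second probe 0.16 (adjusted p = 0.353), and Etfdh, which passes their electrons to ubiquinone, 0.31 (0.0386). Of 36 genes of oxidative phosphorylation, 11 rose and none fell (median 0.20), beside 6.94% of all genes, and 14 had groups that did not overlap and were higher, beside 9.07%. Atp5o, a subunit of ATP synthase, read 8.40, 8.43, 8.56 and 8.48 in the recipients and 7.94, 7.82, 8.01 and 7.93 in SPF mice and was 1.46-fold higher (log2 change 0.54 ± 0.09 SE, adjusted p = 0.00284). Ndufs4 of complex I had 0.44 (adjusted p = 0.00394), with 0.43 to 0.56 by 3 further probes, and Sdhb of complex II had 0.47 (0.00547). These steps are small beside the choice of scaling: under median scaling 30 of 36 rose, beside 16.8% of all genes in that fit. Without SPF replicates 2 and 4, 2 rose (median 0.20), beside 1.83% of all genes in that fit. Counts of oxidative phosphorylation genes that rose were 5 or 6 without recipient 1, 2 or 4 or SPF replicate 2. For fatty acid oxidation the median was -0.02 without SPF replicates 2 and 4, and 6 rose without SPF replicate 13. The fit lost the call of Etfdh without any of the 4 recipients or SPF replicates 2 or 4 (adjusted p 0.0638 to 0.11).

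Enzymes that conjugate and clear foreign compounds were higher in recipients. Of 27 measured, 8 rose and none fell (median 0.45), beside 6.94% of all genes that rose. Gsta3, a glutathione transferase, read 10.36, 10.14, 10.02 and 10.06 in the recipients and 9.04, 8.89, 8.70 and 9.31 in SPF mice. Recipients lay above all SPF arrays with little spread, and Gsta3 was 2.24-fold higher (log2 change 1.16 ± 0.13 SE, adjusted p = 0.000689), with 0.61 by a second probe (adjusted p = 0.0131). Nqo1, the quinone reductase induced by oxidants and aryl hydrocarbons, read 8.77, 8.75, 8.73 and 9.07 in the recipients and 8.19, 8.00, 8.30 and 7.41 in SPF mice and rose (log2 change 0.85 ± 0.15 SE, adjusted p = 0.0038). Gstp1 and Mgst1, further glutathione transferases, had 0.47 and 0.52 (adjusted p = 0.00411 and 0.0042). Ugt1a6a, a glucuronosyltransferase that shares exons with its neighbours, read 9.76, 9.42, 9.64 and 9.79 in the recipients and 8.52, 7.95, 9.07 and 6.51 in SPF mice and was 3.11-fold higher (log2 change 1.64 ± 0.36 SE, adjusted p = 0.00875), while further probes gave 1.61 and 0.65 (adjusted p = 0.0141 and 0.164). The carboxylesterase Ces1f read 10.86, 10.48, 10.61 and 10.51 in the recipients and 9.82, 9.30, 10.26 and 7.27 in SPF mice and rose (log2 change 1.46 ± 0.42 SE, adjusted p = 0.0296). SPF replicate 4 was lowest in both, and Ces1f had 0.82 without it (adjusted p = 0.0125). Cyp4f14, a fatty acid hydroxylase, was the 1 of 19 cytochrome P450 genes that rose (log2 change 0.95 ± 0.24 SE, adjusted p = 0.0154), a share close to that of all genes. Akr1c18, a steroid dehydrogenase, was above background on all recipients' arrays and no SPF array, and was at least 1.83-fold higher (means 5.88 and 4.59, adjusted p = 0.00761). Counts of conjugating enzymes that rose were 4 or 5 without recipient 1, 2 or 4 or SPF replicate 2, 4 without SPF replicates 2 and 4, and 13 without SPF replicate 13. Leaving out 1 array ended the calls of Ces1f without any of the 4 recipients or SPF replicate 2 (adjusted p 0.0549 to 0.0672) and Cyp4f14 without SPF replicate 2 (adjusted p 0.0584).

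Receptors for microbial products rose at about the share of all genes. Of 12 measured receptors for metabolites, serotonin and bile acids, 1 rose, close to the 6.94% of all genes, and none fell, beside 9.44%. The gene that rose was Nr1h4, the bile acid receptor FXR (log2 change 0.78 ± 0.24 SE, adjusted p = 0.0387). The fit lost the call of Nr1h4 without recipients 1, 3 or 4 or SPF replicates 1, 2 or 4 (adjusted p 0.0529 to 0.116). The short-chain fatty acid receptors did not pass in the quantile-normalized fit: Ffar2 read 10.51, 10.83, 10.73 and 10.69 in the recipients and 11.38, 10.94, 10.85 and 9.62 in SPF mice (95% interval of the difference -0.72 to 0.71) and Ffar3 had 0.32 (adjusted p = 0.113). Ffar3 rose under median scaling (0.54, adjusted p = 0.0165) and with the Xist level as a covariate, and had 0.20 without recipient 1. Hcar2, the butyrate and niacin receptor, and the serotonin receptor Htr4 had 0.02 and 0.07 (95% intervals -0.34 to 0.38 and -0.20 to 0.35). Ffar4, a receptor for long-chain fatty acids outside that list, read 10.53, 10.47, 10.79 and 10.59 in the recipients and 10.03, 9.80, 9.56 and 8.40 in SPF mice. It was 2.22-fold higher without overlap (log2 change 1.15 ± 0.27 SE, adjusted p = 0.0107).

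Of 14 enteroendocrine genes 4 rose, with 7 above and 7 below 0, beside 6.94% of all genes that rose. Of 15 goblet cell genes 1 rose, close to that share, though 14 were above 0 and the median was 0.44 (0.24 to 0.49 without 1 array). General epithelial genes gave none that passed. Chgb, a granule protein of enteroendocrine cells, read 10.00, 9.87, 9.76 and 9.69 in the recipients and 9.04, 8.98, 9.26 and 8.69 in SPF mice and rose without overlap (log2 change 0.84 ± 0.16 SE, adjusted p = 0.00451). Tph1, the enzyme of serotonin synthesis in those cells, read 7.72, 7.34, 7.54 and 7.50 in the recipients and 6.64, 6.49, 7.30 and 5.64 in SPF mice and rose too (log2 change 1.01 ± 0.27 SE, adjusted p = 0.0197). Chga had 0.69 (adjusted p = 0.0246) and neurotensin, Nts, 1.23 (0.0459), which made 4 of 14 enteroendocrine genes that rose, though the median of the list was -0.07. Spdef, a transcription factor of goblet cells, read 10.56, 10.07, 10.59 and 10.29 in the recipients and 9.86, 9.31, 9.67 and 8.06 in SPF mice and was the 1 of 15 goblet cell genes that rose (log2 change 1.15 ± 0.29 SE, adjusted p = 0.0147), with the lowest value in SPF replicate 4 (0.76 without it). Calls lost on leaving out 1 array were those of Tph1 without SPF replicate 2 (adjusted p 0.0549), Chga without recipient 1 or SPF replicates 2 or 4 (adjusted p 0.0646 to 0.0774) and Nts without recipients 1, 3 or 4 or SPF replicates 1, 2 or 4 (adjusted p 0.0805 to 0.129), and without SPF replicates 2 and 4 none of the 5 passed. Under median scaling the enteroendocrine median was 0.12.

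Genes of the endoplasmic reticulum, in which secreted proteins fold, were higher in recipients. Of 22 measured, 7 rose and none fell, beside 6.94% of all genes that rose. Of the 22, 21 were above 0 (median 0.23), and means over the list were 9.69 to 9.77 in recipients and 9.33 to 9.49 in SPF mice. Sec61b, a subunit of the channel through which proteins enter, read 10.31, 10.52, 10.42 and 10.35 in the recipients and 9.82, 9.74, 9.82 and 9.87 in SPF mice. The recipients exceeded all SPF arrays by more than either group's spread (log2 change 0.58 ± 0.09 SE, adjusted p = 0.00229; second probe 0.65). Creld2, a chaperone of the stress response, read 9.37, 9.77, 9.51 and 9.99 in the recipients and 8.88, 8.59, 8.94 and 9.09 in SPF mice and was 1.72-fold higher (log2 change 0.79 ± 0.16 SE, adjusted p = 0.00556; second probe 0.81). Edem1, which sends misfolded proteins to degradation, had 0.76 (adjusted p = 0.00988), and Dnajb9 and Dnajc3, both co-chaperones of the main chaperone BiP, 0.59 and 0.25 (0.011 and 0.0485). Sec61b and Creld2 passed without SPF replicates 2 and 4, and 4 genes did without SPF replicate 2 alone. The fit lost the call of Dnajc3 without any of the 4 recipients or SPF replicates 1, 2 or 13 (adjusted p 0.0526 to 0.131). Under median scaling 16 of 22 rose, beside 16.8% of all genes in that fit.

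The endoplasmic reticulum stress element (ERSE, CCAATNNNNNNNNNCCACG) is bound by factors that switch these genes on. Promoters of Creld2 and Dnajc3 are shown because they rose and hold it within the RefSeq window, in capitals, from position -126 in Creld2 (chr15:88819396-88819695, plus strand, with the element on the opposite strand) and from -105 in Dnajc3 (chr14:118937682-118937981, plus strand).
Creld2: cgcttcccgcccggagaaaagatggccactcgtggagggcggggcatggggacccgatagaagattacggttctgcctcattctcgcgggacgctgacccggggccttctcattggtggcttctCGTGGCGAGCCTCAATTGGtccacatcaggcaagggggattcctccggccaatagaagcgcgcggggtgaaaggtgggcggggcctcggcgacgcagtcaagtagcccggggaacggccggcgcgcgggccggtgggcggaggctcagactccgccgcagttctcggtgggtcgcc
Dnajc3: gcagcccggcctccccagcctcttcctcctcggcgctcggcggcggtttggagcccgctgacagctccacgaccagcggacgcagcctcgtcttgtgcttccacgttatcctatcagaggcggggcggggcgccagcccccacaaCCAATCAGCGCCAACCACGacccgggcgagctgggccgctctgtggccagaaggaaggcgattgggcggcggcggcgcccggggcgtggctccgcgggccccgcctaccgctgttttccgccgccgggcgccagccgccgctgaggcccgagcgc
On either strand, 6 of 18 list members with a window held the element, 2 of the 6 that rose and 4 that did not pass (Calr, Hsp90b1, Hspa5 and Pdia6), beside 0.137% of all 27025 genes.

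A few genes of the circadian clock (Ciart, Dbp, Usp2 and Npas2) set recipients apart from 3 of the 4 SPF arrays. Ciart, a repressor of the clock, read 7.93, 7.35, 7.70 and 7.71 in the recipients and 5.16, 4.94, 5.13 and 7.05 in SPF mice. It was 4.3-fold higher in recipients without overlap (log2 change 2.10 ± 0.39 SE, adjusted p = 0.00411), with SPF replicate 4 close to the recipients, and a second probe gave 2.09, with SPF replicate 4 again below all recipients. Dbp, the output factor of the clock, read 11.94, 11.57, 11.76 and 11.30 in the recipients and 9.82, 10.41, 9.49 and 12.02 in SPF mice, with SPF replicate 4 above all recipients, and rose (log2 change 1.21 ± 0.39 SE, adjusted p = 0.0434). The clock-controlled protease Usp2 read 9.70, 9.22, 9.46 and 9.27 in the recipients and 8.01, 7.96, 8.09 and 9.37 in SPF mice and rose (log2 change 1.05 ± 0.32 SE, adjusted p = 0.0355), with SPF replicate 4 among the recipients, and 2 further probes near background gave 0.25 and 0.50 (adjusted p = 0.497 and 0.0578). Clock itself read 9.95, 9.81, 9.76 and 9.90 in the recipients and 10.23, 10.24, 10.24 and 10.19 in SPF mice. It fell by a small step that exceeded the spread of either group (log2 change -0.37 ± 0.08 SE, adjusted p = 0.00944; second probe -0.39, adjusted p = 0.0879), and did not pass under median scaling (-0.24, adjusted p = 0.0802). Npas2, a partner that can stand in for Clock, read 4.58, 4.89, 4.73 and 5.14 in the recipients and 6.26, 5.81, 5.82 and 4.77 in SPF mice and fell (log2 change -0.83 ± 0.24 SE, adjusted p = 0.0283), with SPF replicate 4 among the recipients. Arntl, which pairs with Clock or Npas2, read 5.09, 5.67, 5.49 and 6.46 in the recipients and 6.69, 7.03, 7.02 and 5.62 in SPF mice and did not pass (adjusted p = 0.101), and the nuclear receptor Rora fell (log2 change -0.73 ± 0.19 SE, adjusted p = 0.0176). Of 16 measured clock genes, 3 rose, 3 fell and 10 did not pass, beside 6.94% of all genes that rose and 9.44% that fell.

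Counts in this list depended on SPF replicate 4, which was unlike the other SPF arrays. In the fit without it, 6 of 16 clock genes rose and 5 fell, beside 5.12% and 7% of all genes. Ciart was then at 2.60 (adjusted p = 0.000296), Dbp at 1.74 (0.00187), Usp2 at 1.39 (0.00755), Npas2 at -1.13 (0.00253) and Arntl at -1.24 (0.0355). Leave-one-out fits also lost the calls of Dbp and Usp2 without any of the 4 recipients or SPF replicates 1, 2 or 13 (adjusted p 0.0616 to 0.0989 and 0.0562 to 0.112), Npas2 without recipients 1, 2 or 3 or SPF replicates 1 or 2 (adjusted p 0.0548 to 0.0814) and Rora without SPF replicate 2 (adjusted p 0.0653), and left 1 gene of this list that rose without any recipient or without SPF replicate 1 or 2. The hour at which each mouse was killed is not given, and its part in these values was not tested.

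**Figure D4:**
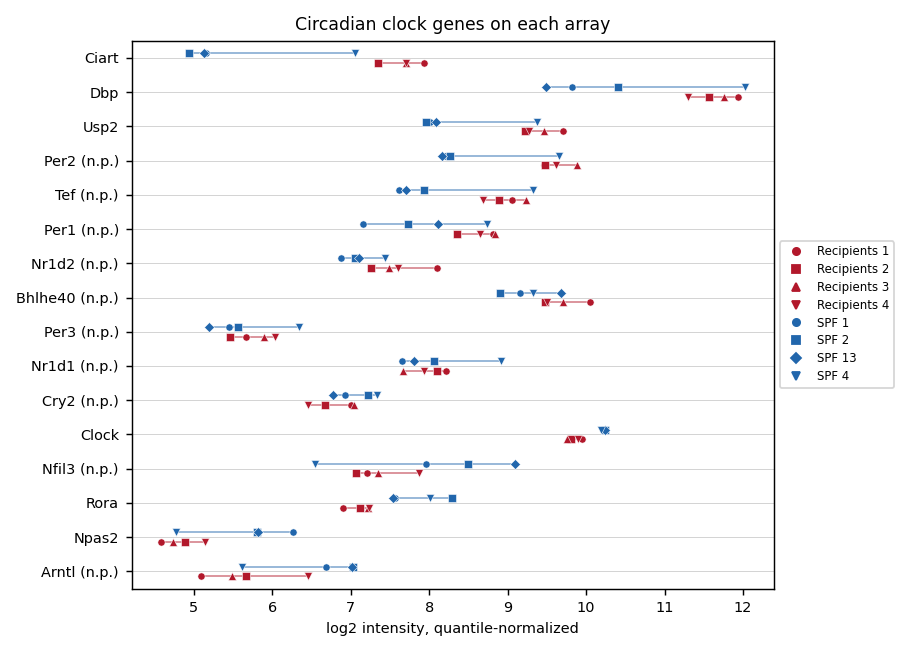
Quantile-normalized log2 intensity of the 16 measured clock genes on each array, ordered by log2 fold change, recipients in red and SPF mice in blue, with 1 symbol per replicate, a line over each group's range and n.p. beside genes that did not pass. SPF replicate 4 (blue triangle pointing down) lies near or among the recipients for Ciart, Dbp, Usp2 and Npas2, away from SPF replicates 1, 2 and 13.

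Clock and its partners bind the E-box CACGTG. The promoter of Ciart is shown because it rose most of the list and holds 3 of them, in capitals, from positions -116, -58 and -44 of the start site (chr3:95882179-95882478, minus strand, GRCm38.p6).
Ciart: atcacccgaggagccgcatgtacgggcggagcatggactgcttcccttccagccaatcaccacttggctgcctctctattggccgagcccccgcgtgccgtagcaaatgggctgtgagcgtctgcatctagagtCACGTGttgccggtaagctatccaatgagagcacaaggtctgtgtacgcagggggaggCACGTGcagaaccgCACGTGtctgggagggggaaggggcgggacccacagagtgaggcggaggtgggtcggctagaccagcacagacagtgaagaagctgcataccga
Of 14 clock genes with a window, 3 held an E-box (Ciart, Per1 and Tef, of which Ciart passed), beside 8.09% of all genes. Fkbp5, a target of the glucocorticoid receptor whose hormone follows a daily rhythm, read 9.64, 9.40, 9.54 and 9.44 in the recipients and 7.94, 7.30, 8.21 and 8.76 in SPF mice. Recipients were above every SPF array and Fkbp5 was 2.74-fold higher (log2 change 1.46 ± 0.23 SE, adjusted p = 0.00255), and it rose without SPF replicates 2 and 4 too (1.43, adjusted p = 0.00274). Cirbp, a cold-inducible RNA-binding protein, read 6.77, 6.73, 6.25 and 6.03 in the recipients and 8.12, 7.96, 7.84 and 7.01 in SPF mice and was 2.44-fold lower (log2 change -1.29 ± 0.24 SE, adjusted p = 0.00449), with SPF replicate 4 nearest to the recipients.

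Immediate early genes, which cells switch on within minutes of a stimulus, had some members that were lower in recipients. Of 20 measured, 4 fell and none rose, beside 9.44% of all genes that fell, and the median turned from -0.14 to 0.05 under median scaling. Ccn2, a matrix-associated target of mechanical signals, read 10.55, 10.53, 10.74 and 10.69 in the recipients and 11.58, 12.07, 11.42 and 11.71 in SPF mice. The groups lay clearly apart and Ccn2 was 2.09-fold lower (log2 change -1.07 ± 0.18 SE, adjusted p = 0.00298). Egr1 read 8.88, 9.36, 9.18 and 8.78 in the recipients and 10.26, 10.68, 10.60 and 9.17 in SPF mice, with SPF replicate 4 among the recipients, and fell (log2 change -1.13 ± 0.32 SE, adjusted p = 0.0265). Klf6 and Jun had -0.41 and -0.44 (adjusted p = 0.0172 and 0.0381; second Klf6 probe -0.34, adjusted p = 0.273). Leave-one-out fits lost the calls of Egr1 without recipients 1 or 4 or SPF replicates 2 or 13 (adjusted p 0.0522 to 0.0931) and Jun without recipients 1, 2 or 4 or SPF replicates 1 or 2 (adjusted p 0.0593 to 0.129). Klf6 did not pass under median scaling (-0.16, adjusted p = 0.368).

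Lists of immune cell genes gave single members that moved. In neither direction was their share larger than that of all genes, of which 6.94% rose and 9.44% fell. Blnk, an adaptor of B cell receptor signalling, read 8.30, 8.33, 8.21 and 8.12 in the recipients and 7.20, 6.95, 7.48 and 7.48 in SPF mice and was 1.95-fold higher (log2 change 0.96 ± 0.15 SE, adjusted p = 0.00255; second probe 0.98), while Cd79a, part of that receptor, read 4.94, 5.33, 5.38 and 5.21 in the recipients and 5.44, 6.18, 5.88 and 6.48 in SPF mice and fell (log2 change -0.78 ± 0.20 SE, adjusted p = 0.0182). No other of 16 genes of B and plasma cells passed. Perforin, Prf1, read 7.19, 7.06, 6.98 and 7.29 in the recipients and 8.03, 7.61, 8.21 and 7.52 in SPF mice and was the 1 of 18 T and NK cell genes that fell (log2 change -0.71 ± 0.20 SE, adjusted p = 0.0263). Cd163, a scavenger receptor of macrophages, read 7.55, 6.96, 7.11 and 7.33 in the recipients and 5.67, 6.22, 5.45 and 7.35 in SPF mice and was the 1 of 22 macrophage genes that rose (log2 change 1.06 ± 0.32 SE, adjusted p = 0.0361), with SPF replicate 4 among the recipients. Of the sensors of microbes, the inflammasome adaptor Pycard (0.66, adjusted p = 0.0081), the receptor inhibitor Sigirr (0.55, 0.00836) and the adaptor Ticam1 (0.51, 0.0488) rose and the inhibitor Tollip fell (-0.28, 0.0251; second probe -0.04), among 21 measured. For these sensors the share that rose was above that of all genes, and the share that fell was below it. Lost in fits without 1 array were the calls of Cd79a without recipient 1 or SPF replicates 2 or 4 (adjusted p 0.0517 to 0.0609), Prf1 without recipients 2 or 3 or SPF replicates 1 or 13 (adjusted p 0.0546 to 0.064), Cd163 without any of the 4 recipients or SPF replicates 1, 2 or 13 (adjusted p 0.0511 to 0.0865), Tollip without recipients 2, 3 or 4 or SPF replicate 2 (adjusted p 0.0585 to 0.0764) and Ticam1 without any of the 4 recipients or SPF replicates 2 or 4 (adjusted p 0.058 to 0.152). None of 10 genes of MHC class II passed, beside 16.4% of all genes.

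The interferon response was high on 1 recipient's array. Means over 31 genes were 7.24, 7.25, 7.31 and 8.99 in recipients and 7.23 to 7.35 in SPF mice, and Isg15, a ubiquitin-like protein induced by interferon, read 7.29, 7.24, 7.41 and 10.95 in the recipients and 6.29, 6.61, 6.69 and 6.93 in SPF mice. Recipient 4 thus stood alone, Isg15 did not pass (log2 change 1.59 ± 0.77 SE, adjusted p = 0.162), and without that array the median of the list went from 0.30 to -0.07. Ifi35 was the 1 of 31 members that rose, beside 6.94% of all genes (log2 change 0.81 ± 0.19 SE, adjusted p = 0.0124), and did so without recipient 4 too.

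Of the remaining genes with the largest changes, all without overlap between groups, Mal, a lipid raft protein of epithelium and glia, had 1.41 (adjusted p = 0.0354; second probe 0.75, adjusted p = 0.115). H2-Q2, a class I histocompatibility gene with near-identical copies, had 1.41 (0.00754), Ntrk2, a neurotrophin receptor, 1.15 (0.00884) and D930020B18Rik, of which no role is given here, 1.30 (0.0026). Zc3h6, a zinc finger protein, read 5.10, 5.04, 5.63 and 4.97 in the recipients and 6.63, 6.90, 6.42 and 6.41 in SPF mice. It was 2.65-fold lower (log2 change -1.41 ± 0.20 SE, adjusted p = 0.00161), with 1 of 4 recipients above background. The fit lost the call of Mal without any of the 4 recipients or SPF replicates 2 or 4 (adjusted p 0.0623 to 0.0893).

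Values of the recipients can be set beside those of GF mice, from which they came, with the reminder that both comparisons use the same recipients' arrays. Between recipients and GF mice 272 of 9862 genes passed (2.76%), 144 higher and 128 lower. Contractile means were 10.66 to 10.94 in recipients, 10.52 to 11.28 in GF mice and 10.75 to 10.82 in recipients of the microbiota of loperamide-treated donors (C/+Lop), and none of the 24 genes passed against GF mice (median -0.09). Matrix means were 8.51 to 8.74, 7.93 to 8.75 and 8.41 to 8.83, with 1 of 31 genes higher than in GF mice. None of the 16 clock genes and none of the 36 of oxidative phosphorylation passed against GF mice. Ciart had -0.11 (adjusted p = 0.916) and Dbp -0.17 (0.863). Gsta3, Nqo1 and Acaa2 had 0.46, -0.05 and -0.08 against GF mice, and none of these passed.

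Other named genes did pass against GF mice. Apoa1, not above background in recipients, was lower than in GF mice (means 4.66 and 7.38, adjusted p = 0.027) and so were Cirbp and Zc3h6 (-1.52 and -1.29, adjusted p = 0.00474 and 0.0038). Egr1 had -2.05 (0.00412). Wfdc18 was higher than in GF mice (2.30, 0.000541), as were Reg3g (2.39, 0.0415), Chgb (0.72, 0.027), Creld2 (1.12, 0.00182) and Sec61b (0.57, 0.0038). Reg3b had 2.85 and did not pass (0.0914). Immune lists, of which few members passed against SPF mice, held genes that were higher than in GF mice. Of 16 genes of B and plasma cells 7 were higher (means 7.35 to 7.72 in recipients, 7.18 to 7.84 in SPF mice and 6.60 to 6.75 in GF mice), and of 22 macrophage and dendritic cell genes 5 were (means 7.75 to 8.21, 7.48 to 8.20 and 7.11 to 7.54). Of the 22 genes of the endoplasmic reticulum, 10 were higher than in GF mice and none lower (median 0.43, beside 1.46% of all genes), and means were 9.10 to 9.41 in GF mice. Against SPF mice, the C/+Lop recipients had log2 fold changes of 4.36 for Reg3b, -1.22 for Synm and 1.13 for Gsta3, beside 4.37, -1.11 and 1.16 in recipients of control microbiota, with the same SPF arrays in both.

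**Figure D5:**
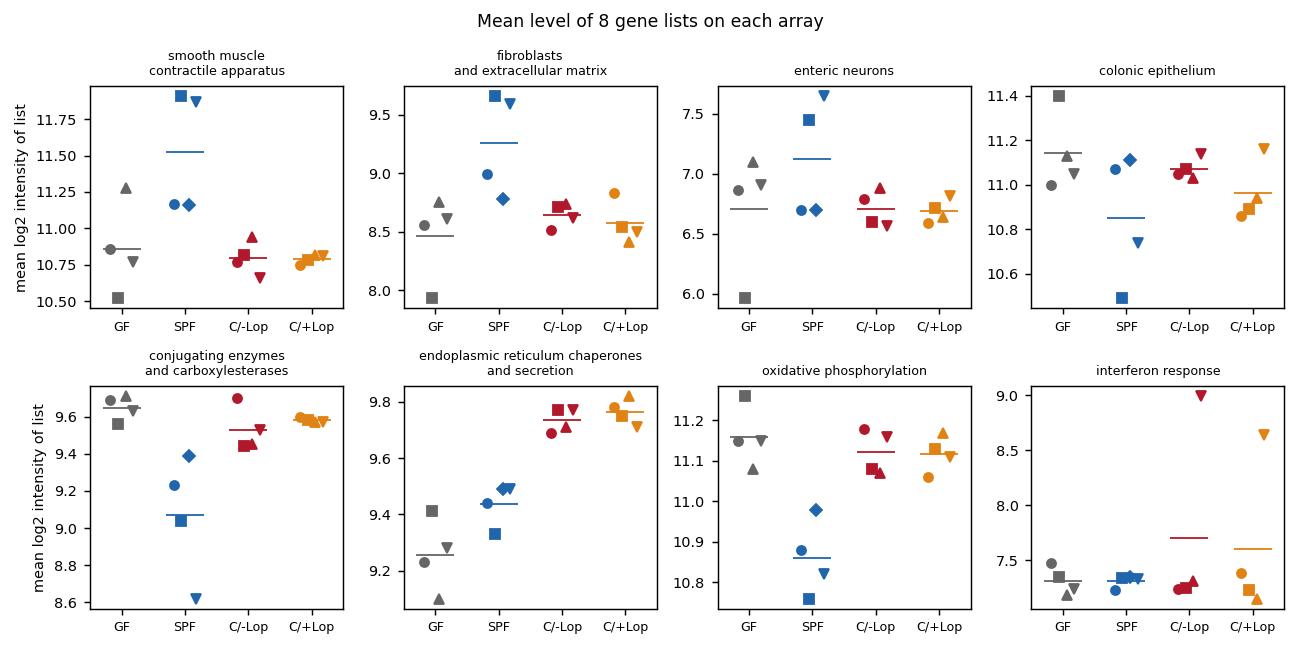
Mean quantile-normalized log2 intensity of 8 gene lists on each of the 16 arrays, by group, with 1 symbol per replicate and a bar at the group mean. Both recipient groups lie near GF mice for contractile, matrix and neuronal genes, SPF replicates 2 and 4 stand high there and low for epithelium, recipients lie above both GF and SPF mice for the endoplasmic reticulum, and 1 array of each recipient group is high for the interferon response.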

How the data were processed

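Smooth muscle RNA of the proximal colon was read on Illumina mouse arrays, 8 of them labelled C/-Lop or SPF, with 8 further arrays (GF, C/+Lop) in the same fit. The authors deposited the mean bead intensity of each probe on a linear scale, neither background-corrected nor normalized, with its standard error as an intensity, the count of beads and a detection p-value. They also deposited log2 values of 16029 probes, normalized between arrays, which lay within 0.0251 of those computed here and were used as an alternative. The submitters' processing notes name limma, with no version. Further steps were not given in the sources used here. Only the labels assigned arrays to groups.

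The R package limma (3.58.1, under R 4.3.3) was used: neqc (normexp with control values inferred from detection p-values, offset 16, quantile normalization, log2), a filter of detection p under 0.05 on at least 4 of 16 arrays, lmFit with 4 group means (12 residual degrees of freedom), eBayes and Benjamini-Hochberg adjustment over 14102 probes. The offset shrinks fold changes of dim probes, and quantile normalization hides a change of most transcripts in 1 direction. A fold is given as "at least" where a group had no detected array; each of its arrays then took the lowest signal of any detected probe, or its own value if higher. The script was checked on simulated data. Of 15096 probes in the platform's table, 15091 were matched by Entrez identifier to GRCm38.p6 symbols; 13321 kept probes had 1 gene and 781 were unnamed here. Promoters are RefSeq windows of GRCm38.p6. No slide or scan is given, so no array batch could be examined, and the number of arrays limits the precision.

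Members, 35 gene lists, the naming rule and the tests were chosen with earlier results of these data known. Named were the 15 largest changes either way among genes that passed without overlap, the 4 smallest p and both extremes of each list, receptors fixed by name (muscarinic, fatty acid, butyrate, serotonin) and Ache; further list members could be named by role. Of 859 listed genes, 596 were measured and the others were not analysed here. The rule named 189 genes. Fold changes are described for 118 genes, 107 that passed and 11 that did not. Rule-named genes left out include Sis, Anpep and Abcg5, which did not pass. Alternatives were the deposited values, no background correction, cyclic loess, median scaling, no or a stricter filter, the 2 groups alone, the methods' t-test, array weights, Xist, the epithelial mean or the replicate number as covariates, and leaving out arrays.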

Additional observations from a re-analysis of the deposited data

Results flagged for a closer look

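Within each group of 4 arrays, the highest or lowest value of each gene named in the text was checked for its distance from the nearest other array against Dixon's 95% critical value for 4 arrays. Of 236 such groups, 9 held a value that far out, and chance alone gives about 1 in 20.

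SPF replicate 4 held 4 of them. Ciart read 7.05 there, against 4.94 to 5.16 on the other SPF arrays, and Usp2 read 9.37 against 7.96 to 8.09. Ido1 read 6.26 against 8.12 to 8.33, and Htr4 read 6.00 against 5.58 to 5.61.

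Recipient 4 held 3. Isg15 read 10.95 there, against 7.24 to 7.41 on the other recipients' arrays, Nqo1 read 9.07 against 8.73 to 8.77, and Acaa2 read 10.46 against 10.32 to 10.34. Recipient 1 held the other 2, Ang4 at 13.44 against 12.70 to 12.80 and Mal at 7.85 against 7.44 to 7.50.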

How the results depend on the processing

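Counts of probes that passed were 2373 (1165 higher, 1208 lower in recipients). They lay within 1.5 times of these values with cyclic loess, no background correction, the log2 values as deposited, either filter, array weights and the Xist level as a covariate. Median scaling gave 2599 higher. The 2 groups alone gave 1465 (708 higher, 757 lower), with fewer arrays behind the spread. The methods' t-test gave 3921 (1996, 1925) unadjusted and 809 (464, 345) after Benjamini-Hochberg. The epithelial mean as a covariate gave 1076 (504, 572), leaving out SPF replicates 2 and 4 gave 631 (311, 320), and the arrays without Xist signal, an alternative chosen after seeing the data, gave 7 (4, 3). Leaving out 1 array at a time gave 1059 to 3024 (523 to 1418 higher, 536 to 1606 lower), lowest without SPF replicate 2 and highest without SPF replicate 13. Without recipient 4 it was 1382 (683, 699) and without recipient 2 1510 (732, 778).

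The numbers do not pair the arrays: deviations of same-numbered recipients and SPF arrays correlated at 0.005, -0.029 and -0.064, and recipient 3 and SPF replicate 13 had no partner. With the replicate number as a block, 2601 probes passed (1209, 1392).

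Of 107 named genes that passed, 43 were lost without at least 1 single array (39 without SPF replicate 2), 63 without SPF replicates 2 and 4, 40 with the epithelial covariate, 30 in the fit of the 2 groups alone, 82 by the methods' t-test with Benjamini-Hochberg adjustment (9 unadjusted), 103 on the arrays without Xist signal and 13 under median scaling (Tpm1, Des, Mylk, Kcnk3, P2ry1, Chrm2, Npy, Clock, Npas2, Klf6, Cd79a, Tollip and Prox1). None of these 107 changed direction in an alternative that gave it a value. Of the 11 that did not pass, 6 did in some alternative: Acta2 and Ffar3 under median scaling, Ffar3 and Ano1 with the Xist covariate, Ache with the replicate block, Ano1 without SPF replicate 13, and Chrm3 and Arntl without SPF replicate 4. Ffar2 turned to 0.17 under median scaling, 0.081 with the Xist covariate, 0.13 with the replicate block and up to 0.22 without 1 array (-0.36 to 0.22). Hcar2 turned to -0.047 with cyclic loess, -0.10 with array weights, -0.043 with the block and -0.11 to 0.14 without 1 array. Htr4 turned to -0.012 with the Xist covariate and -0.005 with the block. Causes of these moves were not tested. Dim probes near background set a limit on fold changes of Defa20, Chrm2, Synpo2, Kcnk3, Prkcq, Npas2 and Zc3h6.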
